A study of Rattus norvegicus with 4 samples.

Results

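Bone morphogenetic proteins (BMPs) and the extracellular proteins that hold them back were followed across the arrays through 9 genes: the ligand genes Bmp2, Bmp3, Bmp4, Bmp6 and Bmp7, the antagonist genes Grem1, Nog and Chrd, and Bambi. These were all non-control probes whose gene name on the array, without the endings for predicted or mapped genes, was one of the 9 symbols. They came to 9 of 35658 gene names and 13 of 41012 probes, and 4 of the genes had 2 probes each. All 13 probes passed the filter on dim probes. The genes were chosen with their ratios in these data known, so their ratios are given as a description, with no p-value, and how many the fit called is given only beside the share of all names called. Bambi is not secreted: it encodes a transmembrane pseudoreceptor, and it is described apart from the 3 secreted antagonists.

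The cells were cultures of olfactory ensheathing cells, glial cells that bundle the olfactory nerve fibres between the nose and the brain. They came from male Fischer rats, in one group from the olfactory mucosa and in the other from the olfactory bulb, and both groups were grown by the same protocol. Each of the 4 arrays carried 1 biological replicate as a pair, with amplified cDNA of mucosa cells labelled with Cy5 and that of bulb cells with Cy3. The labels give no further treatment and no age, and do not say how many animals made up a culture.

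The orientation of the dyes was the same on all arrays, so dye and tissue cannot be told apart. The 4 arrays limit the precision of each value. The median signal of a spot ran from 567 to 842 in Cy5 and from 342 to 382 in Cy3, and 82.8% to 91.1% of the spots in a channel were well above background. All 12 markers of ensheathing glia examined were well above background in both channels of every array. In bulk RNA such as this, fewer cells of a type and less RNA per cell cannot be told apart.

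BMPs are dimeric ligands of the TGF-beta superfamily that join type I and type II serine/threonine kinase receptors, which phosphorylate Smad1, Smad5 and Smad9, and these enter the nucleus with Smad4. Gremlin 1, noggin and chordin bind the ligands outside the cell and keep them from their receptors, while Bambi resembles a type I receptor without a kinase domain. In the olfactory system, BMP signalling is known for its part in patterning the olfactory placode and in the balance between division and differentiation of neuronal progenitors.

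The sequences of 4 probes are shown so that the measured stretches of the 3 genes that were higher in mucosa cells, Grem1, Bmp3 and Bmp4, and of Nog, where the ratio lay near 0, can be seen. Grem1 A_44_P256301, which had the largest ratio, and Nog A_44_P515381, the probe that was lower in mucosa cells, may lie in untranslated regions and are given by position only. They are the 60-base probes of the array as deposited, 5′ to 3′ in the sense of the transcript, with positions on the rn4 build. Capitals mark the whole codons of the reading frame where just 1 of the 3 sense frames is free of stop codons, and a sequence with more than 1 such frame is all in lower case. An open frame is a description only, since 84.5% of all probes on the array had at least 1.
Grem1 A_44_P550490, chr3:99600383-99600442, minus strand: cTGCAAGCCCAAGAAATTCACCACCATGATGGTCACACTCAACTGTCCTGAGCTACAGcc
Bmp3 A_44_P526978, chr14:12065804-12065863, minus strand: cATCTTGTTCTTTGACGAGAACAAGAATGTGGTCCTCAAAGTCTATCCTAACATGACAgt
Bmp4 A_44_P538357, chr15:22283916-22283975, minus strand: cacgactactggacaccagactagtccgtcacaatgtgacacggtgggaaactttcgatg
Nog A_44_P423938, chr10:77690164-77690223, minus strand: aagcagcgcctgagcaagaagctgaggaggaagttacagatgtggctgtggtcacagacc

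The longest run of bases that any 2 of the 13 member probes shared was 8, and no other probe on the array had the sequence of a member probe. GC content of the member probes ran from 30% to 55%, around the median of 43.3% for all probes. No annotation of exons or untranslated regions for rn4 was used here, so no probe is assigned to one.

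The data divide the 9 genes into 3 sets. Grem1, Bmp3 and Bmp4 were higher in mucosa cells at each of their probes and on each array. Bmp2, Bmp6, Bmp7, Chrd and Bambi had ratios on either side of 0. Nog had 1 probe near 0 and 1 probe that was lower in mucosa cells on each array. The ratio had the same sign on all 4 arrays at 5 of the 13 probes, where 33.4% of all tested probes did so. At these 5 the levels of the channels did not overlap, 4 being higher and 1 lower in mucosa cells, and 20.7% of all tested probes did not overlap (11.1% higher and 9.61% lower). The median log2 ratio of mucosa over bulb was 0.061 over the 13 member probes and -0.004 over all tested probes. By limma with Benjamini-Hochberg adjustment at a threshold of 0.05, 3 of the 9 genes were called higher and 0 lower at their brightest probe. Over all 31868 gene names 6.62% were called, 3.24% higher and 3.39% lower. Among single probes, 4 of 13 were called higher and 1 lower, beside 6.55% of 36713 tested probes (3.13% higher and 3.42% lower). Since the genes were chosen on this contrast, nothing is read from these counts.

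**Figure D1:**
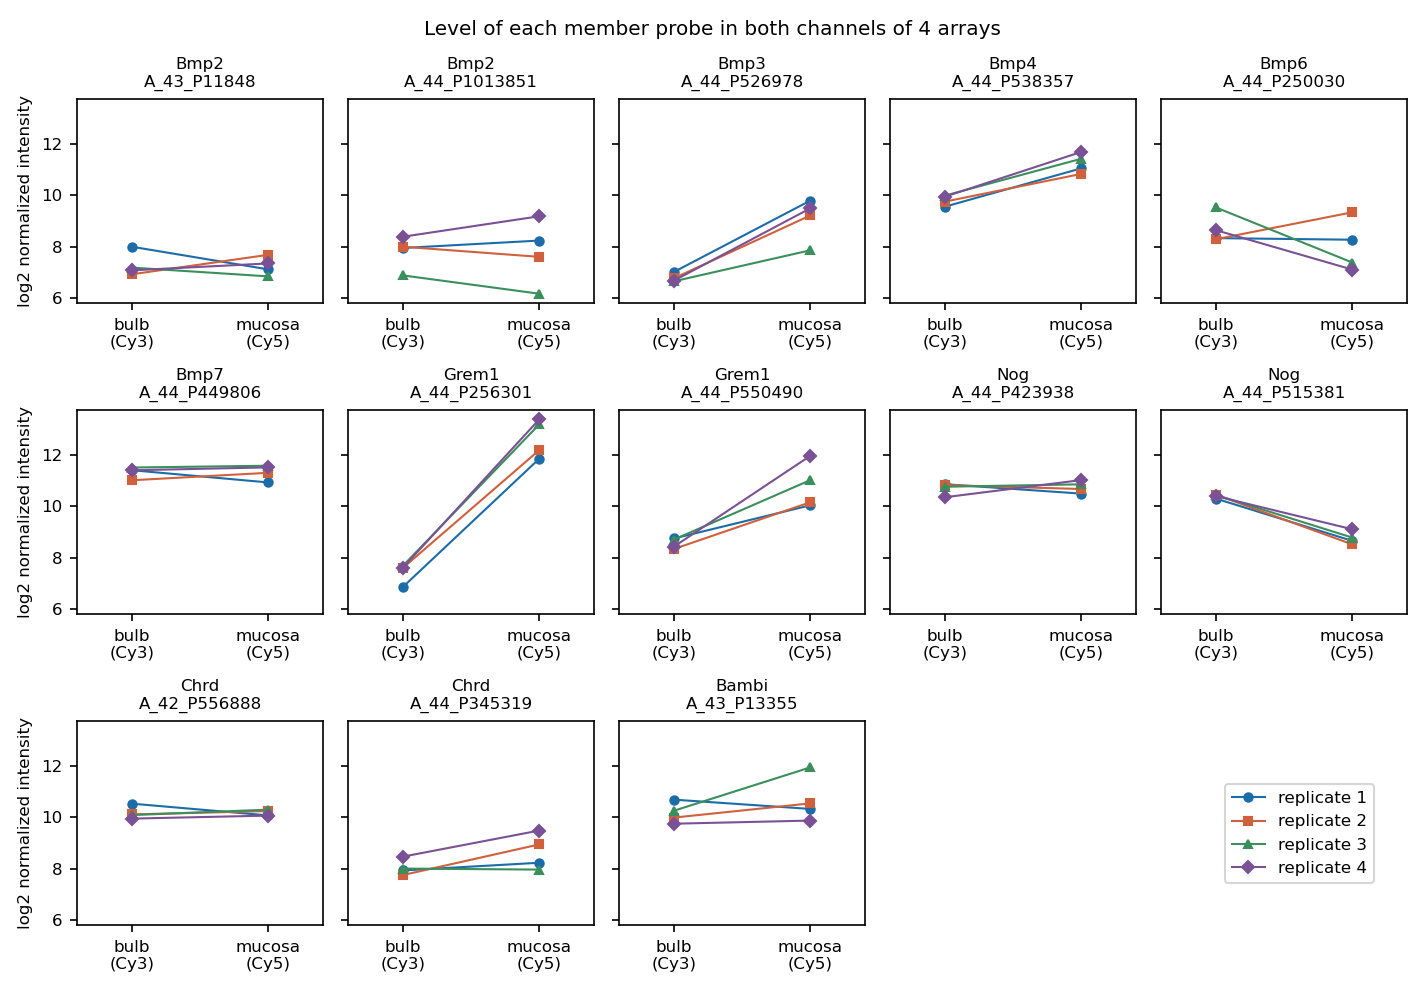
Log2 normalized intensity (vertical axis) of the 13 member probes in bulb cells (Cy3, left in each panel) and mucosa cells (Cy5, right), with 1 line and marker for each of the 4 arrays. The 2 Grem1 probes, Bmp3 and Bmp4 rise on all 4 lines, Nog A_44_P515381 falls on all 4, and the lines of the other 8 probes go both ways.

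Of the ligands, Bmp4 had the ratio with the smallest SD over the arrays, though its limma call was lost whichever array was left out. Bmp4 is a ligand of the dorsal-ventral and placodal patterning of the embryo and is also made by many mesenchymal cells. Its log2 level in mucosa cells was 11.04, 10.83, 11.41 and 11.68 in replicates 1 to 4, and in bulb cells it was 9.55, 9.75, 9.98 and 9.94. The lowest mucosa level lay above the highest bulb level. The log2 ratios within the arrays were 1.49, 1.08, 1.43 and 1.74, a mean of 1.44 ± 0.27 (SD, n = 4), or 2.71-fold higher in mucosa cells. The SD of this probe lay at percentile 16.2 of the SDs of all tested probes. The authors' deposited ratios gave Bmp4 a mean log2 ratio of 1.52 ± 0.31.

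Bmp3, which encodes osteogenin, a member that antagonises the bone-forming BMPs and is abundant in bone matrix, had a larger and less certain difference. Its log2 level in mucosa cells was 9.79, 9.21, 7.86 and 9.49, and in bulb cells it was 7.02, 6.77, 6.65 and 6.68. The mucosa levels all lay above the bulb levels, with replicate 3 the lowest of the mucosa cells. The bulb levels were near the floor of the measurement. The Cy3 spot signal was 1.85 to 2.86 times its local background, and the probe was not well above background in the bulb cells of replicate 4. The log2 ratios of Bmp3 were 2.77, 2.44, 1.21 and 2.81, a mean of 2.31 ± 0.75 (SD, n = 4), or 4.95-fold higher in mucosa cells. By the authors' deposited ratios, from background-subtracted and dye-normalized signals, the mean log2 ratio of Bmp3 was 4.18 ± 1.15, or 18.1-fold. It was 2.83 with a normexp offset of 16 and 2.98 without background subtraction, so the direction held and the size moved with the processing.

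Bmp7, a ligand of kidney, eye and cartilage development, had a mean ratio near 0. At its probe, on chromosome 3 from 163727379 to 163727438, in mucosa cells its log2 level was 10.92, 11.30, 11.57 and 11.51, and in bulb cells it was 11.39, 11.00, 11.50 and 11.39. The levels of the tissues overlapped. The log2 ratios of Bmp7 were -0.48, 0.29, 0.071 and 0.11, with a mean of -0.0002 ± 0.33 (SD, n = 4).

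Bmp2, the closest relative of Bmp4 among these ligands, was read by 2 dim probes. At the brighter, A_44_P1013851 on chromosome 3 from 121381127 to 121381186, the log2 level in mucosa cells was 8.24, 7.60, 6.17 and 9.18, and that in bulb cells was 7.95, 8.0, 6.88 and 8.38. Replicate 3 was the lowest in both channels, and in its mucosa cells the probe was not well above background. The ratios at this probe were 0.29, -0.39, -0.71 and 0.80, a mean of -0.0052 ± 0.68 (SD, n = 4), and the deposited ratios gave -0.52 ± 1.74. At the other probe, A_43_P11848 from 121380511 to 121380570, the Bmp2 ratios were -0.88, 0.76, -0.34 and 0.27, with a mean of -0.049 ± 0.71. Replicates 1 and 2 had opposite signs at the 2 probes, and neither probe of Bmp2 gave a direction.

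Bmp6, a ligand that in the liver controls iron metabolism, varied most between the pairs. At its probe, on chromosome 17 from 32380203 to 32380262, the log2 level in mucosa cells was 8.27, 9.33, 7.38 and 7.11, and in bulb cells it was 8.33, 8.29, 9.52 and 8.64. Replicate 2 was higher in mucosa cells, replicates 3 and 4 were lower, and replicate 1 was near 0. The ratios were -0.063, 1.05, -2.14 and -1.53, a mean of -0.67 ± 1.44 (SD, n = 4). The SD of Bmp6 lay at percentile 95.1 of all tested probes.

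**Figure D2:**
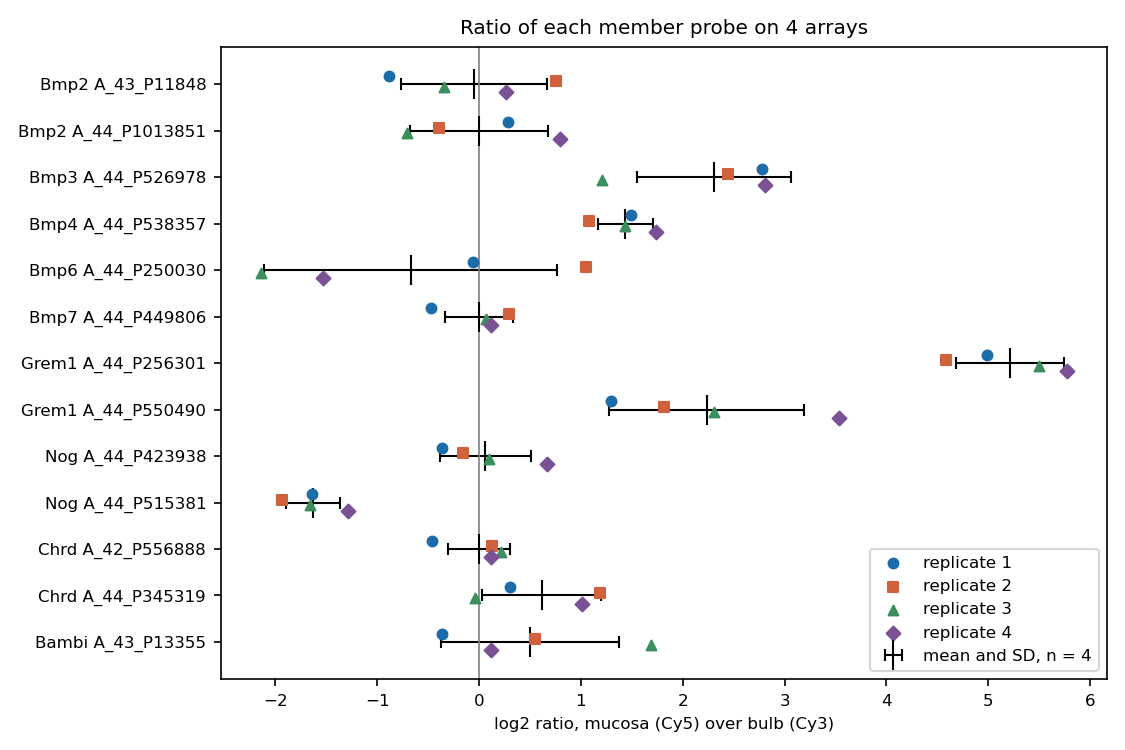
Log2 ratio of mucosa (Cy5) over bulb (Cy3) cells (horizontal axis) at each member probe, with 1 marker for each of the 4 arrays, a vertical tick at the mean and a bar of 1 SD to either side. Grem1 A_44_P256301 stands farthest to the right at 5.21, Bmp3 at 2.31 and Bmp4 at 1.44 lie right of 0 on all arrays, and Bmp6 has the widest bar.

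Grem1, the secreted antagonist of Bmp2, Bmp4 and Bmp7 that is known from limb buds and from stromal cells, had the largest ratio of the 13 probes at one of its 2 probes. At A_44_P256301, on chromosome 3 from 99597425 to 99597483, its log2 level in mucosa cells was 11.85, 12.18, 13.18 and 13.38, and in bulb cells it was 6.86, 7.60, 7.68 and 7.61. The mucosa levels were far above the bulb levels, without overlap. The ratios were 4.99, 4.58, 5.50 and 5.77, a mean of 5.21 ± 0.53 (SD, n = 4), or 37.0-fold higher in mucosa cells. In bulb cells this probe was well above background on all 4 arrays, though its signal was only 1.91 to 3.99 times the local background. The deposited ratios of this probe were 6.71, 5.40, 6.37 and 6.64, a mean of 6.28 ± 0.61, or 77.7-fold.

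The other Grem1 probe, A_44_P550490, gave the same direction with a smaller size. Its log2 level in mucosa cells was 10.03, 10.15, 11.01 and 11.96, and in bulb cells it was 8.74, 8.34, 8.70 and 8.43. These did not overlap either, and replicate 4 was the highest of the mucosa cells at both Grem1 probes. The ratios were 1.29, 1.82, 2.31 and 3.53, a mean of 2.24 ± 0.96 (SD, n = 4), or 4.71-fold higher in mucosa cells, and the deposited ratios gave 2.50 ± 1.06. The ratio at A_44_P256301 exceeded that at A_44_P550490 on 4 of 4 arrays, by 2.24 to 3.70, with a mean of 2.97 ± 0.62. The probes lie 2958 bases apart in rn4. Of the 3281 gene names with 2 tested probes, 0.213% had a larger absolute difference between their probes, and the median was 0.36. This share, here and below, is over names with ratios of any size. The ratios of the Grem1 probes lay at percentiles 100 and 99.2 of all tested probes, so for Grem1 it is a description only. The probes thus put Grem1 at 4.71-fold and at 37.0-fold, with the same direction at both.

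Nog, which encodes noggin, an antagonist of Bmp2, Bmp4 and Bmp7, was the other gene whose probes disagreed. At the brighter, A_44_P423938, its log2 level in mucosa cells was 10.49, 10.66, 10.85 and 11.01, and in bulb cells it was 10.85, 10.82, 10.75 and 10.35. These levels overlapped, and the ratios of -0.37, -0.15, 0.095 and 0.67 had a mean of 0.061 ± 0.45 (SD, n = 4). At A_44_P515381, on chromosome 10 from 77689645 to 77689704, the log2 level in mucosa cells was 8.65, 8.51, 8.78 and 9.10, and in bulb cells it was 10.29, 10.44, 10.44 and 10.39. Here all mucosa levels lay below the bulb levels. The ratios were -1.64, -1.93, -1.66 and -1.29, a mean of -1.63 ± 0.26 (SD, n = 4), or 3.10-fold lower in mucosa cells. The ratio at A_44_P423938 was the greater on 4 of 4 arrays, by 1.69 ± 0.29 on average, for probes 519 bases apart. A larger absolute difference was found in 2.13% of the names with 2 probes. The array names both probes Nog, but through different accessions, and Nog as a gene was given no direction by them.

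Chrd, which encodes chordin, a partner of noggin in dorsal patterning that is cut by tolloid proteases, had ratios on both sides of 0. At the brighter probe, A_42_P556888 on chromosome 11 from 82402755 to 82402814, its log2 level in mucosa cells was 10.06, 10.23, 10.29 and 10.06, and in bulb cells it was 10.52, 10.11, 10.08 and 9.94. The ratios were -0.46, 0.13, 0.21 and 0.12, a mean of -0.0004 ± 0.31 (SD, n = 4), with replicate 1 alone below 0. At the dimmer A_44_P345319, from 82401790 to 82401849, the Chrd ratios were 0.30, 1.19, -0.040 and 1.02, with a mean of 0.62 ± 0.58. The probes differed by 0.62 ± 0.59 and on 3 of 4 arrays in the same direction, and 28.6% of the names with 2 probes differed by more. The Bmp2 probes differed by 0.044 ± 1.02 in the mean, where 92.6% of the names differed by more. On single arrays their difference ran from -1.15 to 1.17. Opposite signs cancelled in the mean, so this share does not show that the Bmp2 probes matched.

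Bambi, the membrane pseudoreceptor, had overlapping levels with 1 high array. On chromosome 17 from 62654418 to 62654477, its log2 level in mucosa cells was 10.32, 10.53, 11.93 and 9.87, and in bulb cells it was 10.68, 9.98, 10.25 and 9.74. The ratios were -0.36, 0.55, 1.68 and 0.12, a mean of 0.50 ± 0.87 (SD, n = 4). Replicate 3 held the highest value, and without it the mean was 0.10.

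**Figure D3:**
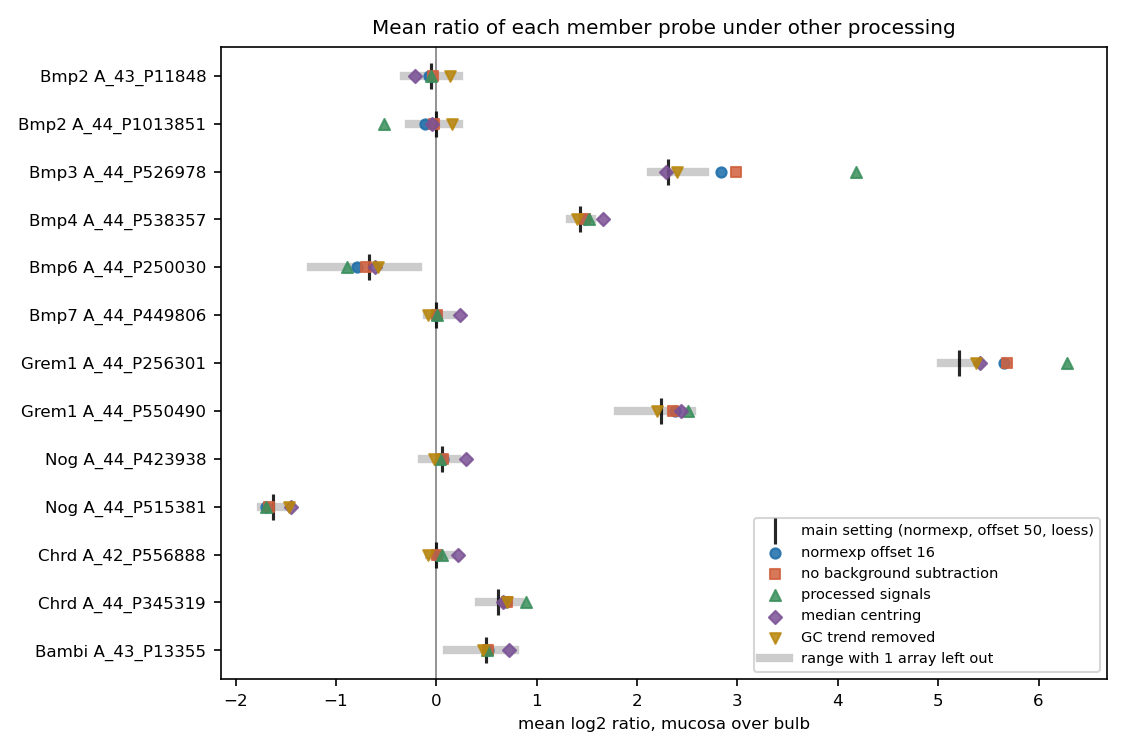
Mean log2 ratio of mucosa over bulb cells (horizontal axis) at each member probe under the main setting and 5 other treatments of the signals, with a grey bar for the range when 1 array at a time was left out. Bmp3 and Grem1 A_44_P256301 move farthest, to 4.18 and 6.28 with the scanner's processed signals, and Bmp2, Bmp7, Nog A_44_P423938 and Chrd A_42_P556888, which lie near 0, change sign between settings.

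The other genes of the pathway were listed by their known roles, but with earlier results of these data in view, so their counts are not independent evidence of a direction. Of 99 listed genes, 83 were on the array and 77 were tested, each counted once. By limma with Benjamini-Hochberg adjustment, 10 of the 77 were higher in mucosa cells and 3 lower, or 13.0% and 3.90% beside 3.24% and 3.39% of all gene names. Their median log2 ratio was 0.24, that of all names 0.012, and 51 of the 77 had a positive mean. Of the 13 calls, those of Crim1, Smad1, Smad6 and Smad7 were made in each of the 18 alternative settings, and the other 9 were lost in at least 2 of them.

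The list of other ligands held genes of the BMP and GDF groups and also Inhba, Inhbb, Inha, Nodal and Amh. Of the 14 tested, 0 were higher and 1 was lower, with a median log2 ratio of 0.096. That is 7.14% called, near the 6.62% of all gene names. The one called was Gdf11, a relative of myostatin known as a brake on olfactory neurogenesis. Its log2 level was 10.41, 10.60, 10.72 and 9.67 in mucosa cells and 11.80, 12.15, 11.98 and 11.95 in bulb cells, without overlap. Gdf11 fell by 1.62 ± 0.46 on the log2 scale (limma adjusted p = 0.0178), and by 0.57 ± 0.41 at its other probe. Without replicate 1 or 2, or with a trended robust variance, Gdf11 was not called (adjusted p up to 0.0793). Bmp5, named here after its values were seen, had the highest ratio of this list without passing, 2.33 ± 1.83 (limma adjusted p = 0.0963), and was well above background on 2 bulb arrays.

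Of 18 other extracellular antagonists, modulators and processing proteases, 4 were higher in mucosa cells and 0 lower, and their median log2 ratio was 0.42. Crim1, a cysteine-rich transmembrane protein that binds BMPs at the cell surface, had the largest difference. Its log2 level in mucosa cells was 14.55, 14.53, 14.24 and 14.85, and in bulb cells it was 10.80, 11.60, 11.54 and 11.73, far apart on each array. Crim1 was 8.74-fold higher (log2 ratio 3.13 ± 0.45, SD, n = 4, limma adjusted p = 0.00284). Tll1, a tolloid protease of the kind that cuts chordin, was higher by 1.45 ± 0.26 (adjusted p = 0.0153), a call not made without replicate 1 or 2 (adjusted p up to 0.0810). Fst, which encodes follistatin, an antagonist of activins and some BMPs, was higher by 1.18 ± 0.33 (adjusted p = 0.0322), and by 1.72 ± 0.41 at its other probe. The follistatin-like gene Fstl1 was higher by 1.13 ± 0.36 (adjusted p = 0.0387). The calls of Fst and Fstl1 were lost whichever array was left out, with adjusted p up to 0.142 and 0.160.

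Among the receptors and co-receptors, 1 of 14 tested was higher and 1 lower, with a median log2 ratio of 0.28. Eng, the co-receptor endoglin of endothelial and mesenchymal cells, was 4.16-fold higher in mucosa cells (2.05 ± 0.49, limma adjusted p = 0.00923), and its levels did not overlap. Tgfbr3, the co-receptor betaglycan, was lower by a log2 ratio of -1.31 ± 0.49 (adjusted p = 0.0352). Without replicate 1 or 2 Eng was not called (adjusted p up to 0.0567), and Tgfbr3 was not called whichever array was left out (up to 0.139). The receptors of the BMP ligands themselves did not pass. Bmpr2, a type II receptor, had 2.18, 0.90, 0.12 and 1.25, a mean of 1.11 ± 0.85 (adjusted p = 0.123). Bmpr1a, a type I receptor, had 0.54 ± 0.61 (adjusted p = 0.302). Bmpr1b, another type I receptor, was well above background on 2 mucosa and 1 bulb arrays and was not tested. Acvr1, Acvr2a and Acvr2b of the same list, named here after their values were seen, did not pass either. Their ratios were -0.61 ± 0.67, -1.54 ± 1.51 and 0.44 ± 0.40 (limma adjusted p = 0.272, 0.160 and 0.316).

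Of 16 tested Smads and intracellular regulators, 2 were higher and 1 lower, with a median log2 ratio of -0.047. Smad1, a transducer of BMP receptors, had a log2 level of 11.32, 11.41, 10.93 and 10.61 in mucosa cells and 13.21, 13.61, 13.12 and 13.11 in bulb cells. Its levels did not overlap, and it was 4.58-fold lower in mucosa cells (-2.19 ± 0.25, SD, n = 4, limma adjusted p = 0.00436), with -1.50 ± 0.52 at the other Smad1 probe. The transducers Smad5 and Smad9 had 0.87 ± 0.51 and -0.58 ± 1.19 (adjusted p = 0.111 and 0.478), and Smad4, their common partner, had -0.34 ± 0.54 (adjusted p = 0.480). None of these 3 passed.

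Both inhibitory Smads were higher in mucosa cells. Smad6, which blocks BMP receptor signalling in particular, had ratios of 2.03, 1.83, 1.56 and 2.24, a mean of 1.92 ± 0.29 or 3.77-fold (SD, n = 4, limma adjusted p = 0.00685). Smad7, which blocks TGF-beta and BMP receptors alike, had 2.39, 1.89, 1.81 and 1.60, a mean of 1.92 ± 0.34 or 3.79-fold (adjusted p = 0.00765). The levels of mucosa and bulb cells overlapped for neither gene.

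Of 17 tested genes known to respond to BMP, 5 were higher in mucosa cells and 0 lower, with a median log2 ratio of 0.87. The 5 were Smad6 and Smad7, which are also in the list above, and the transcription factors Dlx5, Gata2 and Gata3. Dlx5, a homeobox gene of the olfactory placode and of bone, was higher by 1.61 ± 0.64 (limma adjusted p = 0.0289). Gata2 and Gata3, zinc finger factors of blood and of surface ectoderm, were higher by 1.34 ± 0.14 and 1.04 ± 0.23 (adjusted p = 0.0159 and 0.0369). The calls of Dlx5, Gata2 and Gata3 were lost whichever array was left out, with adjusted p up to 0.0819, 0.0828 and 0.163.

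The Id genes, which encode inhibitors of basic helix-loop-helix factors and are early targets of BMP-activated Smads, had positive means that did not pass. Id1 had ratios of 2.17, 1.45, 1.19 and 0.014 (mean 1.21 ± 0.90, limma adjusted p = 0.111), and Id4 had 1.71, 1.32, 0.38 and 1.33 (mean 1.18 ± 0.56, adjusted p = 0.0569). For Id2 the ratios were 3.08, 1.76, -0.042 and -0.16 (mean 1.16 ± 1.55, adjusted p = 0.274), and for Id3 they were 1.28, 1.21, 0.40 and -0.015 (mean 0.72 ± 0.63, adjusted p = 0.200). Replicates 1 and 2 had the larger ratios of Id1, Id2 and Id3, and replicates 3 and 4 the smaller. The call of Id4 was made without replicate 3 (adjusted p = 0.0458), with median centring (0.0298) and with the GC trend removed (0.0337).

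**Figure D4:**
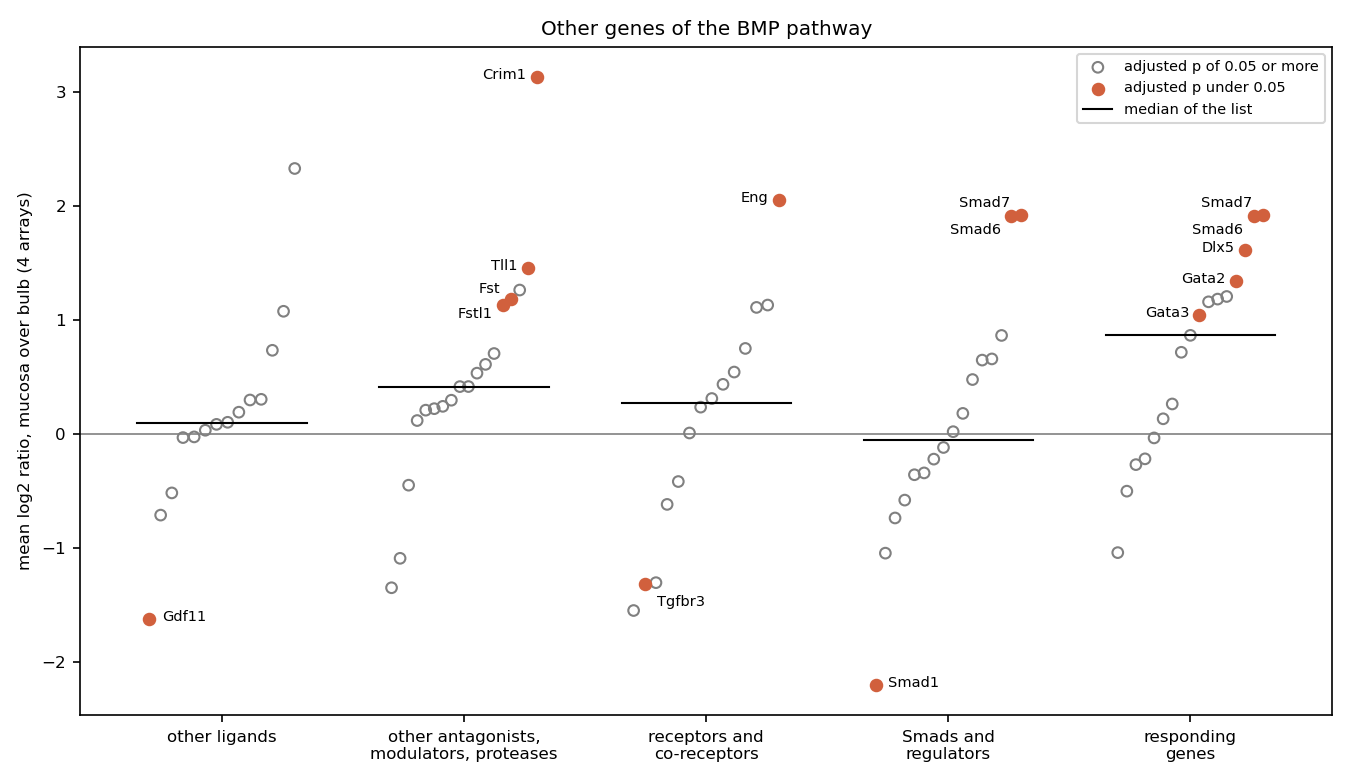
Mean log2 ratio of mucosa over bulb cells over 4 arrays (vertical axis) for the tested genes of 5 lists of the BMP pathway, each ordered by its ratio, with filled points where limma gave an adjusted p under 0.05 and a line at the median of the list. Crim1 at 3.13 and Smad1 at -2.19 are the farthest called genes, and the median of the responding genes is 0.87.

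Markers of other cell types moved between the same channels. Their counts of calls, here and below, stand beside 3.24% of all gene names called higher and 3.39% called lower. Fibroblast markers had 5 of 10 higher and 2 lower in mucosa cells, with a summed linear level of 274100 to 317800 in mucosa and 108300 to 157800 in bulb cells. Markers of smooth muscle and pericytes had 4 of 6 higher and 0 lower, with sums of 95350 to 108200 and 17110 to 28290. Cartilage and bone markers had 3 of 7 higher and 0 lower, with sums of 30280 to 55070 and 7513 to 9610. The sums of mucosa and bulb cells did not overlap for these 3 lists. Such sums, here and below, weigh the brightest genes most, in mucosa cells Col1a1, Tagln, Col2a1 and Comp. They therefore do not show that a list moved as a whole. The 2 lower fibroblast markers were Fbln1 and Dcn, with log2 ratios of -4.15 and -2.01. Rgs5, of the smooth muscle and pericyte list, had -2.45 ± 2.29 without passing.

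In the other direction, 7 of 12 markers of ensheathing glia were lower in mucosa cells and 0 higher, with sums of 20140 to 22000 against 45540 to 58440. Of 4 leptomeningeal markers 2 were lower and 0 higher, with sums of 2171 to 2938 against 7484 to 12660. Each tested marker of these lists was well above background on at least 1 array in both channels. Astrocyte, macrophage, endothelial and epithelial markers had 0, 1, 1 and 0 higher and 2, 0, 1 and 1 lower of 5, 4, 3 and 4 tested. The macrophage marker called was Cd74, with a log2 ratio of 3.10. The other macrophage markers tested, Cd68, Csf1r and Aif1, had negative means of -0.81, -1.02 and -0.16 without passing. Gfap is in the ensheathing and the astrocyte list. The part of these cell types in the ratios of the BMP genes was not tested.

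The genes whose ratios on the 4 arrays lay nearest those of Grem1 at its brighter probe, A_44_P256301, by root mean square difference among 8836 named genes, were Pax3 (0.62), Eps8l1 (0.72), Slc6a6 (0.85), Thbs1 (0.85) and Col2a1 (0.96). Pax3, a transcription factor of neural crest and placodes, had ratios of 4.68, 4.66, 4.58 and 4.99, where Grem1 had 4.99, 4.58, 5.50 and 5.77 at that probe. The other Grem1 probe was dimmer in mucosa cells (mean log2 level 10.79 against 12.65) but brighter in bulb cells (8.55 against 7.44). Such levels are of 2 different probes and are not compared as amounts of transcript. A_44_P550490 had a mean ratio of 2.24 and was not used to find these genes. Those nearest Bmp3 were Ptprh (0.28), Tnnt3 (0.31), Sulf1 (0.35), Ogn (0.36) and Slc38a4 (0.46). Ptprh, a receptor-type tyrosine phosphatase, had ratios of 2.81, 2.40, 0.89 and 2.36, so that replicate 3 was the lowest, as it was for Bmp3. Nearness here is in the size of the ratios over 4 arrays that share a slide and a dye orientation.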

How the data were processed

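The 4 paired 2-colour Agilent arrays, of 45018 features each, were read from the scanner files. Per the labels' protocols, polyA RNA was amplified by global PCR, and 250 ng of cDNA was labelled in each channel. The deposited signals of spots and background are unnormalized linear intensity values. The ratios, which the authors deposited as log10 (Cy5/Cy3, per the file headers), come from signals that the scanner software corrected for background and dye. Agilent Feature Extraction is named as version 10.5.1.1 in the headers, and as 9.1 by the submitters' processing notes.

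Mean signals were corrected with normexp (offset 50) and loess within arrays in limma 3.58.1 under R 4.3.3, without outlier spots. The offset and the PCR can compress or shift ratios of dim probes. Levels were also normalized by Aquantile. A probe was tested if well above background in either channel on 3 or more arrays. The probe brightest over both channels together stood for each of 31868 gene names. The mean log2 ratio was tested against 0 by lmFit and eBayes with Benjamini-Hochberg adjustment. Replicate numbers mark the pairs, which share an array, per the design text. A single slide and scan time held all arrays.

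Members and lists were chosen with earlier results of these data known. The text names all members, 13 receptors, Smads and Id genes whatever their result, up to 6 called genes per pathway list, and the 5 genes nearest Grem1 and Bmp3. Bmp5, Acvr1, Acvr2a and Acvr2b were added after their values were seen. Names came from the array or a table of the GRCr8 assembly. Alternatives covered background, normalization, filter, probe choice, pairing, variance and each array left out. The fit was tested on simulated data. Figures were drawn with matplotlib 3.10.9.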

Additional observations from a re-analysis of the deposited data

Results flagged for a closer look

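Of 61 groups of 4 values examined, 2 had 1 array far from the others, and chance alone gives about 1 in 20. The bulb level of Grem1 at A_44_P256301 was 6.86 in replicate 1, where the others lay between 7.60 and 7.68. The log2 ratio of Chrd at A_42_P556888 was -0.46 in replicate 1 and 0.12 to 0.21 on the other arrays. In both cases replicate 1 was the lowest.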

How the results depend on the processing

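The named pathway genes with alternatives kept their direction in each alternative that gave a value. Bmp5, Acvr1, Acvr2a and Acvr2b were not rerun under the alternatives, and Smad9 gave no value under the strict filter. Of the member genes, Grem1, Bmp3 and Bmp4 were called in the main setting, 1 gene (Grem1) was called without replicate 1, 2 or 4, and 2 (Grem1 and Bmp3) without replicate 3. With the strict filter 7 members were tested and 2 called (Grem1 and Bmp4). With the processed signals and with the value table, Grem1 A_44_P256301 had 6.28 and Bmp3 4.18. Leaving out 1 array gave 562 to 1061 called names (282 to 539 higher, 263 to 522 lower) and 4 to 8 pathway genes (3 to 6 higher, 1 to 2 lower). Without the replicate block, so with channels unpaired, there were 3483 (1740 higher, 1743 lower), and 17 pathway genes were called. A trended robust variance gave 898 (568 higher, 330 lower) and 7 pathway genes (6 higher, 1 lower). Processed signals and the value table each gave 696 lower. Calls were 59.6% higher with median centring and 63.3% with the trended variance, against 48.9%. Id1 was called without the replicate block (adjusted p = 0.0465). Bulb signals of Grem1 A_44_P256301 and Bmp3 lay within 3.99 and 2.86 times their background, which limits how well the size of these ratios is known.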
